A study of Oryza sativa with 12 samples.

Results

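The roots of the rice hybrid Xieyou 9308 were compared with those of its paternal line R9308 at the tillering stage, when side shoots form. The comparison rests on 4 of the 12 root libraries of the study, 2 from the hybrid and 2 from R9308, and covers every annotated transcript of the count table. The other libraries came from the maternal line Xieqingzao B at tillering and from all 3 genotypes at heading. Germinated seeds of all genotypes were sown in a field, and the plants were later floated on nutrient solution. The 2 libraries of a group came from 2 roots, and nothing states that these were grown apart, so the p-values below measure only the spread between these roots. Of the 42081 transcripts in the table, 37549 had a count in at least 1 of the 4 libraries. The test covered the 28434 transcripts with enough counts in the 6 tillering libraries, which include Xieqingzao B. A transcript such as Os06t0726200-02 was therefore tested without a count in the 4 libraries. Transcripts carry the identifiers of the Rice Annotation Project, in which the digits after Os give the chromosome and the number after the dash gives the isoform. Levels are given as RPKM, read counts scaled to the length of the transcript and the total of the library.

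A hybrid receives 1 set of chromosomes from each parent, so a transcript made from only 1 parental copy is expected to lie between the parents, and other transcripts can lie at or outside either parent. Roots of cereals take up iron with the help of secreted chelators, and they defend themselves with antimicrobial peptides, enzymes that break fungal cell walls and, in rice, diterpenoid phytoalexins. Growing root tips hold dividing cells, which make histones, replication proteins and ribosomes in quantity.

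Total counts were 10555249 and 15830233 in the R9308 libraries and 8209696 and 12567672 in the hybrid libraries. Both groups held root transcripts. All 8 transcripts of a root marker list were counted, and Os02t0662000-01, the root protein RCc3, stood at 299.9 and 482 RPKM in R9308 and at 487 and 972 RPKM in the hybrid. The list as a whole went the other way, with a median log2 fold change of hybrid over R9308 of -0.69. Its member Os03t0107300-01, given further on, was lower in both hybrid libraries. Os01t0307500-01, a cation transporter, had only 0 and 2 counts in R9308 and 13 and 4 in the hybrid. Replicate 1 of R9308 and replicate 2 of the hybrid each stood apart from the rest. The light reactions of photosynthesis took 1.31% of the counts of R9308 replicate 1 and between 0.0493% and 0.0608% in the other 5 tillering libraries. Ribosomal proteins took 7.71% of the counts of hybrid replicate 2 and between 2.22% and 3.17% in the other 5. In RNA from a whole root, fewer cells of a type and less RNA per cell cannot be told apart.

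Only 3 transcripts were called different by edgeR's quasi-likelihood test with Benjamini-Hochberg adjustment, and all 3 were higher in the hybrid. They are 0.0106% of the transcripts tested. A call needed an adjusted p of at most 0.05 and a change of at least 2-fold. At an unadjusted p under 0.05 there were 2154 higher transcripts (7.58%) and 2766 lower transcripts (9.73%). DESeq2, which estimates the spread in another way, called 964 higher transcripts (3.39%) and 1527 lower transcripts (5.37%). With 2 libraries against 2, an exact permutation test of a single value cannot go below p = 0.333. Leaving out any 1 of the 4 libraries left 0 calls with edgeR, with between 2162 and 8165 transcripts at an unadjusted p under 0.05, and left between 647 and 5493 with DESeq2, the highest without hybrid replicate 1.

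Because few calls could be made, every transcript was also placed by the order of its 4 values. A transcript was counted as separated where the lowest library of one genotype was at least 2-fold above the highest library of the other. It was counted as carried by 1 library where that library was at least 2-fold from the nearest of the other 3, and these lay within 2-fold of each other. The comparison used log2(CPM + 0.5), where CPM is the count scaled to the library total, after the TMM adjustment for composition. In all, 830 transcripts (2.92%) were separated with the hybrid higher and 2081 (7.32%) with the hybrid lower. Hybrid replicate 2 alone was apart at 1560 transcripts (5.49%) where it was high and 1575 (5.54%) where it was low. These 3135 transcripts were more than the 830 and 2081 that separated the genotypes, but this order turned with the settings. With a 1.5-fold gap there were 3301 against 2020 higher and 3596 lower, and with an offset of 0.1 CPM 3221 against 1010 higher and 2402 lower. R9308 replicate 1 alone was high at 562 tested transcripts (1.98%) and low at 141 (0.496%). For R9308 replicate 2 alone there were 94 high (0.331%) and 148 low (0.521%), and for hybrid replicate 1 alone 535 high (1.88%) and 857 low (3.01%). All 4 libraries lay within 2-fold at 8682 transcripts, a class that also takes in tested transcripts without a count in any of the 4.

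**Figure D1:**
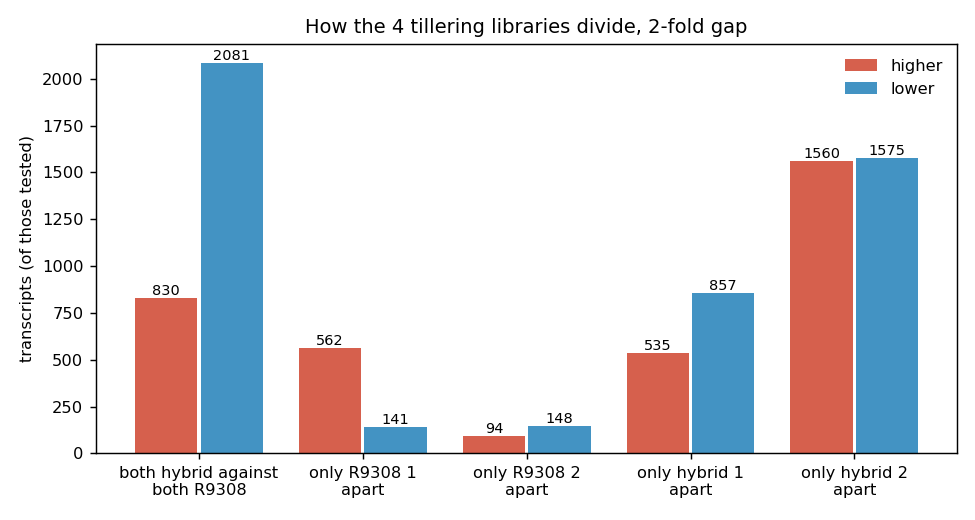
Number of tested transcripts (y axis) that separate both hybrid libraries from both R9308 libraries, or in which 1 of the 4 libraries stands apart (x axis), with red bars for higher and blue bars for lower. The lower bar for separation, 2081, is larger than the higher bar, 830, and the bars of hybrid replicate 2, 1560 and 1575, are the largest among single libraries.

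The class of a transcript and its test by DESeq2 overlapped in part. Of the DESeq2 calls, 600 were separated with the hybrid higher and 1300 with the hybrid lower. The calls also held 36 transcripts that were high in R9308 replicate 1 alone, 31 that were high in hybrid replicate 2 alone, 13 in hybrid replicate 1 alone and 2 in R9308 replicate 2 alone. The remaining 509 fell in no class. The sum over all 2081 transcripts lower in the hybrid made up 11.7% and 10.2% of the counts of the R9308 libraries and 2.46% and 1.97% of those of the hybrid libraries, a difference fixed by the way they were chosen. In Xieqingzao B they made up 6.82% and 4.71%.

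The heading libraries came from other roots and took no part in the choice, so they show whether a difference was seen again. Of the 732 transcripts higher in the hybrid that could be tested at heading, 190 (26.0%) were separated in the same direction there and 18 in the opposite one. Over all 26366 transcripts tested at both stages, 4.10% were separated with the hybrid higher at heading. Of 1916 transcripts lower in the hybrid, 200 (10.4%) were separated the same way at heading and 68 the opposite way, against 2.13% over all. The share grew with the gap between genotypes at tillering. Of those at least 4-fold apart, 54.4% of the higher and 18.9% of the lower transcripts were seen again, and of those at least 32-fold apart, 8 of 12 higher and 10 of 22 lower ones. Transcripts carried by 1 library did otherwise. Of 1358 that were high in hybrid replicate 2 alone, 27 (1.99%) were higher in the hybrid at heading, and of 1553 that were low in it alone, 34 (2.19%) were lower. Of 492 that were high in R9308 replicate 1 alone, 19 (3.86%) were lower in the hybrid at heading and 55 (11.2%) were higher.

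**Figure D2:**
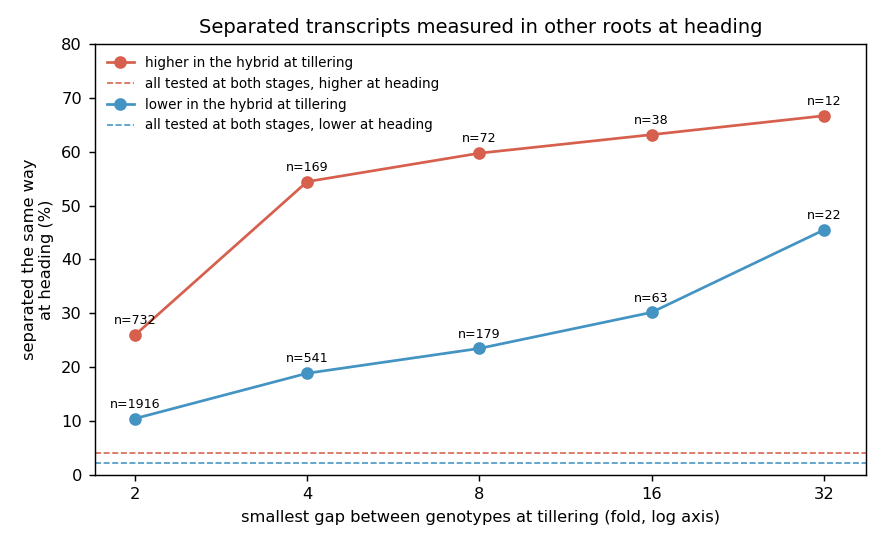
Share of separated transcripts that were separated in the same direction at heading (y axis, %) against the smallest gap between the genotypes at tillering (x axis, fold, log axis), with the number tested above each point and dashed lines for all transcripts tested at both stages. The share rises from 26.0% to 66.7% for transcripts higher in the hybrid and from 10.4% to 45.5% for those lower, all above the dashed lines at 4.10% and 2.13%.

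The 3 called transcripts were nearly silent in R9308. Os07t0429700-01, a conserved hypothetical protein on chromosome 7, had 0.441 and 0.392 RPKM in R9308 and 207 and 249.7 RPKM in the hybrid, means of 0.417 ± 0.0346 and 228 ± 30.3 RPKM (SD, n = 2). Its log2 fold change was 8.99 (SE 0.43, edgeR quasi-likelihood adjusted p = 0.0221). Os07t0432333-01, also a conserved hypothetical protein, had 0.461 and 0.410 RPKM in R9308 and 261 and 290.4 RPKM in the hybrid, a log2 fold change of 9.21 (SE 0.42, edgeR adjusted p = 0.0221). Os11t0303800-01, a conserved hypothetical protein on chromosome 11, had 0.346 and 0.336 RPKM against 80.4 and 79.3 RPKM, a log2 fold change of 7.81 (SE 0.40, edgeR adjusted p = 0.0221). On the CPM + 0.5 scale, which shrinks the gap of transcripts this low in R9308, the lowest hybrid library lay between 146-fold and 211-fold above the highest R9308 library. The adjusted p of each lay between 0.0756 and 0.439 when 1 of the 4 libraries was left out. In Xieqingzao B their levels were 678 and 798 RPKM, 886 and 898 RPKM, and 159 and 177 RPKM, so that each hybrid value lay between the parents. At heading all 3 were again separated with the hybrid higher.

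Both chromosome 7 transcripts belong to a run of 6 adjacent loci, all of them separated at both stages. The other 4 are annotated as similar to thionin-like peptides, small cysteine-rich antimicrobial peptides of plants. Os07t0431160-00 had 0 and 0.196 RPKM in R9308, 156 and 183 RPKM in the hybrid and 414 and 506 RPKM in Xieqingzao B. Os07t0432201-01 had 0 and 0.776 RPKM in R9308, 228 and 318 RPKM in the hybrid, and 1134 and 863 RPKM in Xieqingzao B. Os07t0430501-00 and Os07t0429600-00 had no count in R9308 at either stage and stood at 12.6 and 13.1 RPKM and at 1.73 and 3.25 RPKM in the hybrid. The loci are alike in annotation, and reads shared between near-identical copies could have been divided among them. Runs of neighbouring loci, and the members named from them, were chosen after their values were seen. Over the 23289 tested loci there were 8 runs of 3 or more adjacent loci with the hybrid higher, holding 31 loci, and 62 runs with the hybrid lower, holding 237 loci.

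Other transcripts higher in the hybrid were also at or near 0 in R9308. Os10t0137300-00, similar to a barley blufensin, had 0.383 and 1.02 RPKM in R9308 and 846 and 231 RPKM in the hybrid, which differed from each other and both lay far above R9308. It stood at 2595 and 2219.9 RPKM in Xieqingzao B and was again separated at heading. On chromosome 9, 5 adjacent loci were higher in the hybrid and 4 of them again at heading. Among them Os09t0358000-00, similar to OsD305, had no count in R9308 at either stage, 15.1 and 25.6 RPKM in the hybrid at tillering and 15.3 and 14.4 RPKM at heading. On chromosome 11, 3 adjacent loci did the same, and Os11t0661900-01, a conserved hypothetical protein, had 0.127 RPKM in both R9308 libraries and 12.6 and 7.52 RPKM in the hybrid. Chromosome 11 had the largest share of separated transcripts with the hybrid higher, 72 of 1519 (4.74%), and chromosome 12 the smallest, 29 of 1489 (1.95%).

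Receptors with an NB-ARC domain, the nucleotide-binding part of intracellular immune receptors, appeared in both directions. Of 180 tested, 10 (5.56%) were separated with the hybrid higher and 24 (13.3%) with the hybrid lower, against 2.92% and 7.32% of all tested, and the median log2 fold change was -0.42 against 0.00 over all tested transcripts. Of the 10 higher ones 8 were again higher at heading, and of the 24 lower ones 6 were again lower. Os11t0226933-01 had 12.2 and 4.17 RPKM in R9308 and 158 and 40.0 RPKM in the hybrid. Os11t0639600-02 had 0 and 0.105 RPKM in R9308 and 13.4 and 8.09 RPKM in the hybrid. Os12t0237900-01 went the other way, with 13.1 and 8.06 RPKM in R9308, 0 and 0.0246 RPKM in the hybrid, and 0.633 and 0.475 RPKM in Xieqingzao B. Hybrid replicate 2 alone was low in 30 of the 180 (16.7%, against 5.54% of all tested). Without 1 library the list median lay between -0.95 and -0.22.

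The study checked 8 loci of this comparison by quantitative PCR with 9 primer pairs, in RNA of sequenced and of new samples. The loci were chosen on the sequenced samples, so their counts are no independent evidence of direction. The paper reports that quantitative PCR and sequencing gave the same trend for every transcript it checked. All 8 were higher in R9308 in all 4 libraries, none was called by edgeR, and their edgeR quasi-likelihood adjusted p lay between 0.151 and 0.164. The DESeq2 adjusted p was 7.2e-06 for Os04t0179700-01 and 4.7e-07 for Os01t0946700-01. The primers of a diterpene synthase and of a glucanase, whose counts are given further on, are shown 5′ to 3′ because they fix which transcripts the study followed.

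Os04t0179700 forward: agaccaaaaacatgccgtgcca

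Os04t0179700 reverse: gcacacgcaatgcgagcatca

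Os01t0946700 forward: agcaaatgggaggtgcccacg

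Os01t0946700 reverse: acagctgcacgacctcgctc

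The primer table also pairs another locus with a primer that lies on the opposite strand of the same bases. Capitals mark the bases that the forward primer listed for Os04t0664900 shares, as their reverse complement, with the reverse primers listed for the NB-ARC locus Os04t0205200, 20 bases with the one and 22, its whole length, with the other. Both loci are on chromosome 4.

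Os04t0205200 reverse, one pair: tcgACACGTTCAAAAGCCTCGTG

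Os04t0205200 reverse, the other pair: cgACACGTTCAAAAGCCTCGTGGA

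Os04t0664900 forward: TCCACGAGGCTTTTGAACGTGT

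In the counts these 2 loci were separate features. Os04t0205200-00 had 31.9 and 26.3 RPKM in R9308 and 2.46 and 1.06 RPKM in the hybrid, and Os04t0664900-01, annotated as similar to a protein of unstated function, had 142 and 109 RPKM against 8.66 and 4.30 RPKM. Os01t0237500-01, of the NmrA-like family, had 274 and 151 RPKM in R9308 and 4.27 and 2.09 RPKM in the hybrid, the widest gap of the 8 at 29.8-fold. Os06t0493100-01, a conserved hypothetical protein, had 529 and 289 RPKM against 30.4 and 26.8 RPKM. Os02t0582600-01, with a heavy metal transport domain, had 79.5 and 72.4 RPKM against 8.26 and 9.61 RPKM, and at heading all 4 of its values lay within 2-fold. In 5 of the 8 loci the hybrid was again lower at heading.

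Diterpenoid synthesis was among the lists most often lower in the hybrid. Rice makes the phytoalexins momilactone and phytocassane from geranylgeranyl diphosphate, with copalyl diphosphate synthases, diterpene synthases and cytochrome P450 enzymes acting in turn. Of 17 tested transcripts of the list, 7 (41.2%) were separated with the hybrid lower and 0 with the hybrid higher, against 7.32% and 2.92% of all tested. The median log2 fold change was -2.03, and lay between -2.27 and -1.34 when 1 library was left out. DESeq2 called all 7 lower. The summed level was 652 and 569.7 RPKM in R9308, 126 and 145 RPKM in the hybrid, and 267 and 156 RPKM in Xieqingzao B. At heading it was 529.8 and 573 RPKM in R9308 and 271 and 350.1 RPKM in the hybrid.

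On chromosome 4, 6 adjacent loci around the momilactone enzymes were all lower in the hybrid. Os04t0178300-02, a syn-copalyl diphosphate synthase that makes the first ring structure, had 206 and 178 RPKM in R9308 and 16.8 and 2.70 RPKM in the hybrid. Os04t0179700-01, the syn-pimara-7,15-diene synthase that acts next, had 48.0 and 48.6 RPKM against 3.14 and 3.06 RPKM, a log2 fold change of -4.01 (SE 0.76, edgeR adjusted p = 0.159). The groups did not overlap in either transcript. Os04t0180400-01, similar to the P450 CYP99A1, had 123 and 92.6 RPKM against 3.90 and 3.69 RPKM. Of the 7 tested transcripts of the run, 4 were again lower in the hybrid at heading, among them Os04t0179700-01 with 51.7 and 47.3 RPKM in R9308 and 9.52 and 22.4 RPKM in the hybrid.

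On chromosome 2, 8 adjacent loci with P450 enzymes and terpenoid synthases were lower in the hybrid by more, with a median gap between the genotypes of 29.8-fold. Os02t0571100-01, a terpenoid synthase, had 325 and 229.8 RPKM in R9308, 5.40 and 3.73 RPKM in the hybrid, and 48.2 and 5.61 RPKM in Xieqingzao B. Os02t0570400-01, similar to an ent-kaurene synthase, had 132 and 102 RPKM in R9308 and 5.17 and 2.65 RPKM in the hybrid. At heading this run differed less. Os02t0571100-01 then stood at 79.9 and 104 RPKM in R9308 and at 79.0 and 111 RPKM in the hybrid, and 3 of the 9 transcripts of the run were separated again.

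**Figure D3:**
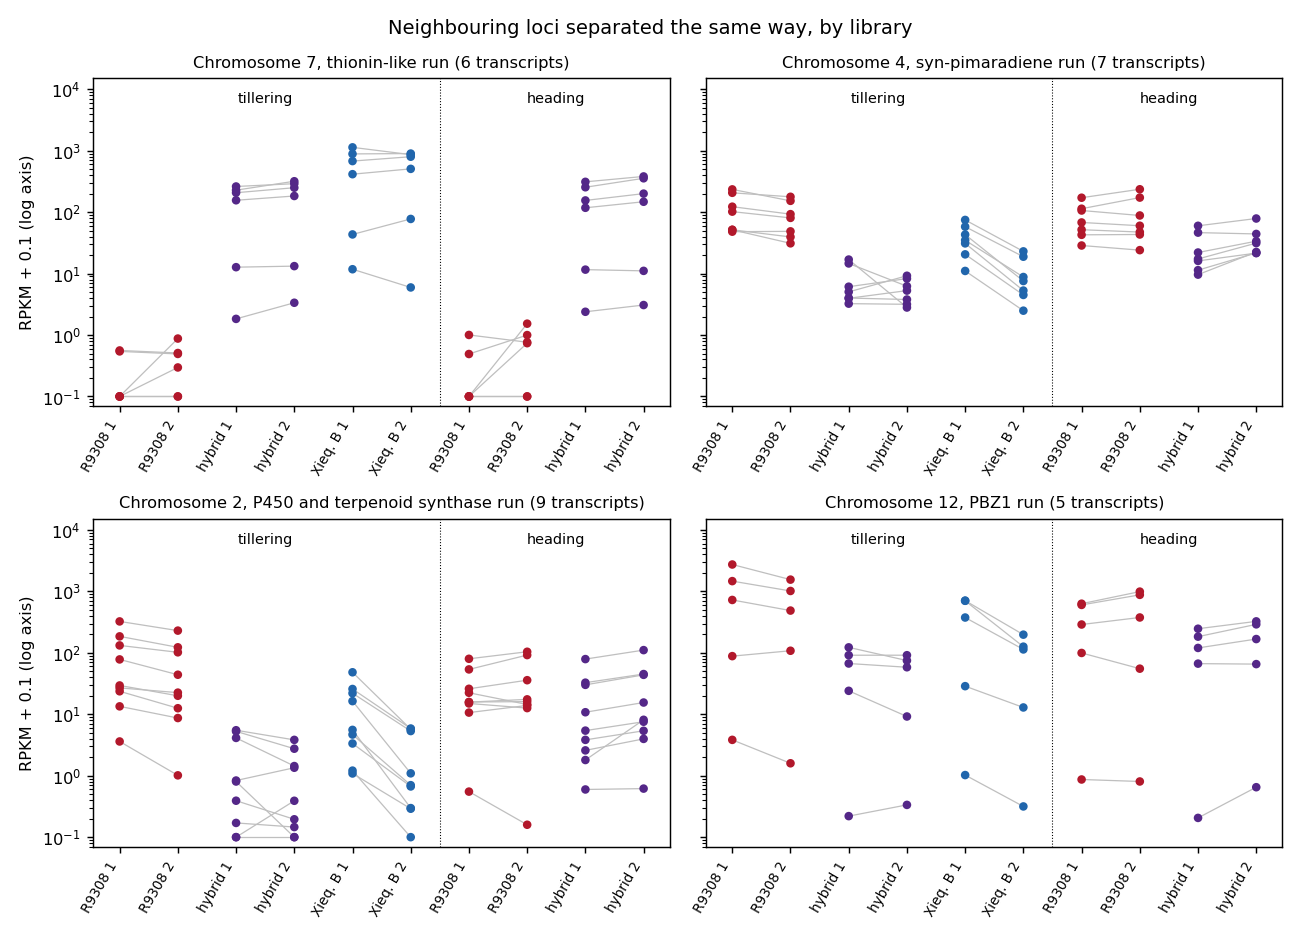
RPKM + 0.1 (y axis, log axis) of each transcript in 4 runs of neighbouring loci, by library (x axis, red R9308, purple hybrid, blue Xieqingzao B), with grey lines joining the 2 libraries of a group and a dotted line between tillering and heading. The chromosome 7 run is near 0 in R9308 at both stages, and the runs on chromosomes 4, 2 and 12 are lower in both hybrid libraries than in both R9308 libraries at tillering.

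Runs on chromosomes 12 and 7, named after their values were seen, hold loci annotated as pathogenesis-related, and no list of such proteins was tested. The PBZ1 run on chromosome 12 holds 4 loci of this probenazole-inducible family and a raffinose synthase. Os12t0555500-01, PBZ1, had 2739.5 and 1554 RPKM in R9308, 123 and 74.8 RPKM in the hybrid, and 703 and 126 RPKM in Xieqingzao B. Os12t0555000-01, similar to it, had 1469.5 and 1016 RPKM in R9308 and 91.4 RPKM in both hybrid libraries. The maternal libraries differed from each other in PBZ1 by more than the R9308 libraries did. Of the 5 transcripts of the run, 1, PBZ1 itself, was again separated at heading, with 630.4 and 992 RPKM in R9308 and 183 and 291 RPKM in the hybrid. A run of 4 thaumatin-like proteins on the same chromosome was lower at tillering, and none of its transcripts was at heading. Its first member, Os12t0628600-01, had 168 and 83.5 RPKM in R9308, 5.73 and 3.12 RPKM in the hybrid, and 184 and 25.4 RPKM in Xieqingzao B.

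The longest run, of 12 loci on chromosome 7, holds PR-1 and allergen V5 family proteins, but 16 of its transcripts shared only 4 distinct count profiles. Each profile occurred 4 times with equal counts and equal length, so the counts of the run cannot be told apart from those of 3 loci entered 4 times. Os07t0124900-01 had 376 and 314 RPKM in R9308 and 73.6 and 164 RPKM in the hybrid. Across the table, 180 transcripts with at least 10 counts had such an identical partner, and 26 of these were among the separated transcripts.

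Enzymes that cut fungal walls were the other large group. Of 49 tested transcripts of the chitinase and glucanase list, 18 (36.7%) were separated with the hybrid lower and 0 with the hybrid higher, against 7.32% and 2.92% of all tested. The median log2 fold change of the list was -1.38. The list also holds the glucan synthases Os01t0754200-02 and Os03t0128100-02, which make rather than cut glucan and were not separated. Os05t0247100-02, a chitinase, had 324 and 215 RPKM in R9308, 22.4 and 16.7 RPKM in the hybrid, and 208 and 142 RPKM in Xieqingzao B. Os01t0946700-01, a glucan endo-1,3-beta-glucosidase, had 96.5 and 107 RPKM in R9308, 14.4 and 7.48 RPKM in the hybrid, and 134 and 74.8 RPKM in Xieqingzao B. In both the hybrid lay below all 4 parental libraries. Only 1 of the 18 was again lower at heading, where the summed level of the list was 859 and 649.8 RPKM in R9308 and 1016 and 1128 RPKM in the hybrid. Of 48 class III peroxidases, enzymes that cross-link cell walls, 11 (22.9%) were separated with the hybrid lower and 2 (4.17%) with it higher. At heading none was separated the same way, and Os05t0134400-01 and Os06t0521500-02 were separated the opposite way.

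Regulators and detoxifying enzymes had the same direction. Of 86 WRKY transcription factors, 21 (24.4%) were separated with the hybrid lower and 1 (1.16%) with the hybrid higher, with a median log2 fold change of -1.14. The shares of all tested transcripts were 7.32% and 2.92%, here and for the transferases that follow. Os05t0137500-00, similar to WRKY 5, had 12.8 and 9.74 RPKM in R9308 and 0.226 and 0.369 RPKM in the hybrid. The exception, Os06t0649000-01, similar to WRKY 28, had 33.9 and 20.03 RPKM in R9308 and 94.9 and 75.6 RPKM in the hybrid. Of 50 glutathione S-transferases, which conjugate toxins to glutathione, 12 (24.0%) were lower and 0 higher, with a median of -1.53. Os10t0530900-02 had 8.86 and 11.9 RPKM in R9308 and no count in the hybrid, at least 37.0-fold higher in R9308 when each hybrid library is set at 3 counts. It had 6.48 and 7.32 RPKM in R9308 and no count in the hybrid at heading as well. This is 1 of 3 transcripts of its locus, which the hybrid did express. The locus sums at tillering were 43.0 and 22.2 CPM in R9308 and 8.17 and 2.79 CPM in the hybrid, still separated. The medians of both lists stayed below 0 without any 1 library. Of the lower members tested at heading, 1 of 20 WRKY factors and 4 of 10 transferases were separated the same way there.

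Of the 8 iron acquisition transcripts, 5 (62.5%) were separated with the hybrid lower and 0 with it higher, against 7.32% and 2.92% of all tested, with a median log2 fold change of -2.22. Grasses take up iron bound to phytosiderophores, which are built from nicotianamine. Os03t0307200-01, nicotianamine synthase 2, had 34.0 and 54.0 RPKM in R9308, 5.22 and 9.78 RPKM in the hybrid, and 20.5 and 84.5 RPKM in Xieqingzao B. Os03t0237100-01, annotated as similar to a codeinone reductase, had 62.6 and 40.5 RPKM in R9308 and 8.25 and 13.1 RPKM in the hybrid. The summed level was 182 and 227 RPKM in R9308 and 40.2 and 80.5 RPKM in the hybrid, but 96.1 and 326 RPKM in Xieqingzao B, and it was between 25.6 and 60.2 RPKM in all 4 libraries of the 2 genotypes at heading. None of the 5 was separated at heading.

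**Figure D4:**
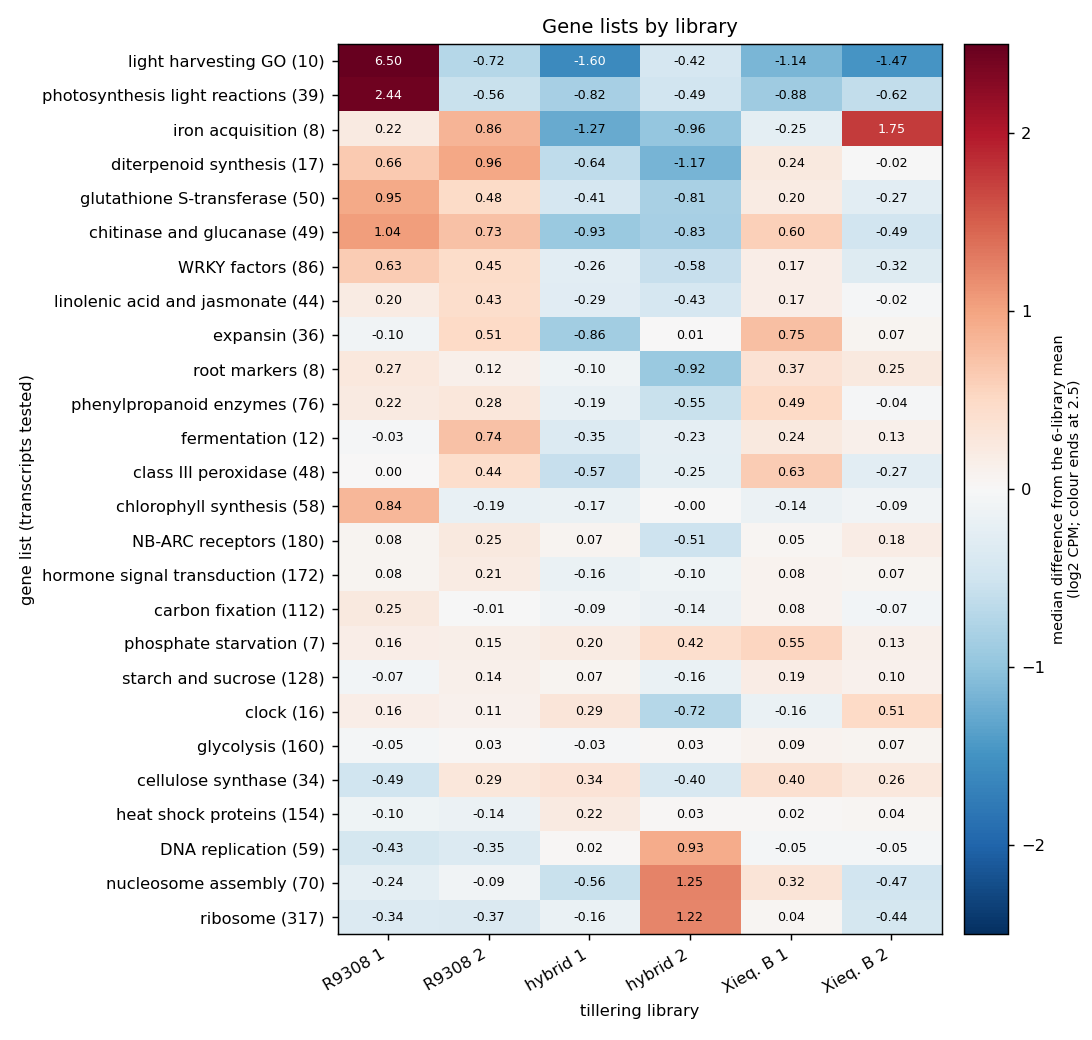
Median difference of each gene list from the mean of the 6 tillering libraries (colour and number, log2 CPM) by library (x axis), with lists (y axis, number of tested transcripts in brackets) ordered by their median fold change. Both R9308 libraries lie above both hybrid libraries in the diterpenoid, chitinase, glutathione S-transferase and WRKY lists, R9308 replicate 1 alone stands out in the photosynthesis lists, and hybrid replicate 2 alone in the ribosome, nucleosome and replication lists.

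Growth-related lists were higher in the hybrid mainly through replicate 2. Of the 317 tested ribosomal protein transcripts, 15 (4.73%) were separated with the hybrid higher and 2 (0.631%) with it lower, against 2.92% and 7.32% of all tested. In 172 (54.3%) hybrid replicate 2 alone was high, against 5.49% of all tested. The summed level was 29552 and 28878 RPKM in R9308 and 34111 and 97735 RPKM in the hybrid. The median log2 fold change was 0.15 without hybrid replicate 2 and as high as 1.58 without another library. Os05t0459900-01, similar to the ribosomal protein L36-1, had 532 and 527 RPKM in R9308 and 696 and 1709.6 RPKM in the hybrid. Os03t0598800-01, similar to L15, was separated, with 24.4 and 36.1 RPKM against 144 and 455 RPKM. At heading the summed level was 19452 and 18215 RPKM in R9308 and 22477 and 23638 RPKM in the hybrid.

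Of 59 DNA replication transcripts, 18 had an unadjusted p under 0.05 with the hybrid higher and 0 with it lower, against 7.58% and 9.73% of all tested. The 4 separated ones included Os05t0476200-02, an isoform similar to the licensing factor MCM3 that loads before replication, with 0 counts in R9308 and Xieqingzao B and 10.5 and 27.9 RPKM in the hybrid, at least 202-fold higher in the hybrid with each R9308 library set at 3 counts. That difference concerned 1 of 2 transcripts of the MCM3 locus, which was counted in all 3 genotypes. Summed over both transcripts, it had 20.2 and 33.9 CPM in R9308 and 47.1 and 117 CPM in the hybrid. In Xieqingzao B the sum was 43.43 and 42.05 CPM. Hybrid and R9308 did not overlap in this sum, but the gap was under 2-fold. Os02t0805200-01, the sliding clamp PCNA, had 19.7 RPKM in both R9308 libraries and 38.5 and 105 RPKM in the hybrid. The list median was 0.92, and 0.48 without hybrid replicate 2. Hybrid replicate 1 also lay above both R9308 libraries in the summed level, 529.6 against 393 and 402 RPKM. It lay close to Xieqingzao B, at 516 and 498 RPKM. Nucleosome assembly, which holds the histones, was high in hybrid replicate 2 alone in 28 of 70 transcripts (40.0%, against 5.49% of all tested). Its median turned from 0.98 to -0.42 without that library.

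Heat shock proteins, chaperones that fold other proteins, were separated with the hybrid higher in 14 of 154 transcripts (9.09%) and lower in 7 (4.55%), against 2.92% and 7.32% of all tested. Os08t0500700-01, similar to heat shock protein 82, had 72.9 and 102 RPKM in R9308 and 597 and 239.7 RPKM in the hybrid. Os02t0758000-01, a low molecular weight heat shock protein, had 15.0 and 17.4 RPKM against 109 and 89.4 RPKM. The summed level was 4606 and 4616 RPKM in R9308 and 8732 and 6988 RPKM in the hybrid, both above the 5283 and 5435 RPKM of Xieqingzao B. The list median was 0.31 and lay between -0.01 and 0.29 when 1 library was left out. At heading the summed level was higher in R9308, at 9902 and 12222 RPKM against 8615 and 9210 RPKM in the hybrid. Of the 13 higher members tested at heading, 1 was separated the same way there, and of the 7 lower members 2 were.

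R9308 replicate 1 carried a set of photosynthesis transcripts that the other roots all but lacked. The light reaction list had 113 counted transcripts, of which R9308 replicate 1 alone was high in 53 (46.9%, against 4.72% of all 38117 transcripts counted at tillering). Its summed level was 13299.7 RPKM in that library, 470.1 RPKM in R9308 replicate 2, and 611 and 554 RPKM in the hybrid. Os12t0291100-01, similar to the rubisco small subunit, had 1003 RPKM in R9308 replicate 1, 0.494 RPKM in replicate 2 and 0.272 and 1.15 RPKM in the hybrid. Os07t0577600-01, similar to a chlorophyll a/b binding protein of photosystem I, had 302 RPKM against 0.994, 1.58 and 1.25 RPKM. The median log2 fold change of the light reactions was -2.73, and 0.62 without R9308 replicate 1. The direction of that median rests on 1 library. At heading, Os12t0291100-01 and Os07t0577600-01 were both separated with the hybrid higher, at 53.8 and 50.4 RPKM and at 23.5 and 9.51 RPKM, against at most 1.49 RPKM in R9308.

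Most of this set never entered the test. Transcripts high in R9308 replicate 1 alone numbered 1800 among all transcripts with a count and 562 among those tested, since the test asked for enough counts in at least 2 libraries. The 1238 left out took 1.98% of the counts of R9308 replicate 1 and at most 0.0141% of any other tillering library. The largest, picked by its count, was Os01t0303000-01, similar to CP12, a regulator of the Calvin cycle, at 2638 RPKM in R9308 replicate 1 against 0.178 RPKM in replicate 2. The 4 separated transcripts of the light reaction list mix both patterns. Os06t0107700-01, the leaf isozyme of ferredoxin-NADP reductase, had 61.3 and 0.825 RPKM in R9308 and no count in the hybrid. Os07t0147900-01, another ferredoxin-NADP reductase, had 76.8 and 60.1 RPKM in R9308 and 22.7 and 18.7 RPKM in the hybrid, so both R9308 roots shared that difference.

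**Figure D5:**
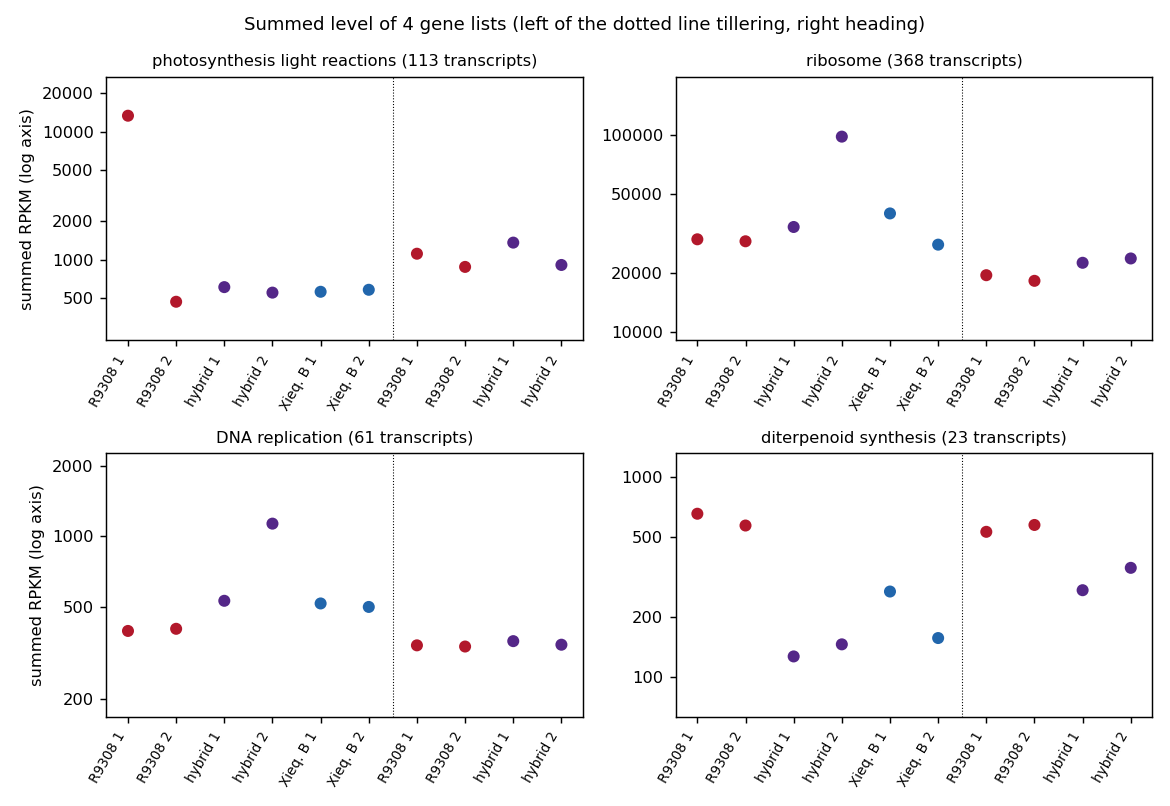
Summed RPKM (y axis, log axis) of 4 gene lists in each R9308 (red), hybrid (purple) and Xieqingzao B (blue) library at tillering and in each R9308 and hybrid library at heading, divided by the dotted line (x axis). The light reactions are high in R9308 replicate 1 alone (13299.7 RPKM), ribosome and DNA replication in hybrid replicate 2 alone (97735 and 1135 RPKM), while diterpenoid synthesis divides the genotypes.

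Hybrid replicate 2 also lacked transcripts that the other libraries held. Os09t0409100-01, a conserved hypothetical protein and the only transcript of its locus, had 2946 and 5058 RPKM in R9308, 2753 RPKM in hybrid replicate 1 and 17.7 RPKM in hybrid replicate 2. In Xieqingzao B it had 1811 and 935 RPKM, and at heading all 4 values lay within 2-fold. The 1575 transcripts low in hybrid replicate 2 alone made up 2.82% of its counts and between 9.13% and 10.9% of the other tillering libraries. Those high in it alone made up 13.7% of its counts and between 3.62% and 5.49% of the others.

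Many differences concerned 1 isoform of a locus rather than the locus. Of the 830 transcripts higher in the hybrid, 411 came from loci with several transcripts, and the summed locus kept the same class for 75 of these. Of the 2081 lower ones, 652 came from such loci and 324 kept it. Os01t0926300-02, a transaldolase isoform, had 385 and 484 RPKM in R9308, 1.64 and 0 RPKM in the hybrid, and no count in Xieqingzao B, while the locus as a whole had 870.1 and 1028 CPM in R9308 and 976 and 509 CPM in the hybrid. Os03t0417800-02, a nitrilase-associated protein, had no count in R9308 and 149 and 263 RPKM in the hybrid, and its locus had 242 and 294 CPM against 284 and 494 CPM. Os05t0495300-05, a hypothetical protein, had 54.9 and 118 RPKM in R9308 and no count in the hybrid, and its locus had 695 and 1137 CPM against 2927 and 352 CPM. The genotypes were not separated in any of these 3 locus sums.

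The same held for single libraries. Os01t0182600-02, an isoform of GIGANTEA, a regulator of the circadian clock and flowering, had 75.4 RPKM in hybrid replicate 1, 40.7 RPKM in replicate 2 of Xieqingzao B and no count in the other 4 tillering libraries. Another isoform, Os01t0182600-03, had 215 and 205 RPKM in R9308 and 207 and 249 RPKM in the hybrid. Os08t0126300-02, similar to glyceraldehyde-3-phosphate dehydrogenase, had 443 and 358 RPKM in R9308, 0 and 317 RPKM in the hybrid, and 438 and 0 RPKM in Xieqingzao B, while all 4 locus sums lay within 2-fold. How reads were divided between isoforms was not tested, and such transcripts are uncertain. Single-transcript loci with wide gaps included Os12t0431300-01, with a beta-propeller domain, at 127 and 103 RPKM in R9308 and 0.444 and 0.348 RPKM in the hybrid, and Os06t0578100-00, similar to a retrotransposon protein, at 39.0 and 37.9 RPKM against 0.181 and 0.118 RPKM. Both were again lower in the hybrid at heading.

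Carbohydrate metabolism and hormone signalling had separated transcripts in both directions. Of 160 glycolysis transcripts, 8 were separated with the hybrid higher and 18 (11.2%) lower, against 2.92% and 7.32% of all tested, with a median log2 fold change of 0.05, and the summed level was 10338 and 10092 RPKM in R9308, 10436 and 12722 RPKM in the hybrid, and 10908 and 10843 RPKM in Xieqingzao B. Of 128 starch and sucrose transcripts, 7 (5.47%) were higher and 10 (7.81%) lower, with a median of -0.12. Os03t0401300-01, annotated in the table as sucrose synthase 2 and named SUS1 by the study, had 390 and 818 RPKM in R9308 and 1101 and 800.2 RPKM in the hybrid, groups that overlapped. This is 1 of 3 transcripts of the locus. The locus sums were 1332 and 2655 CPM in R9308 and 3381 and 4403 CPM in the hybrid. These did not overlap, but the gap was under 2-fold. Of 172 hormone signalling transcripts, 9 (5.23%) were higher and 14 (8.14%) lower, with a median of -0.28. In the jasmonate list, 1 of 44 was higher and 4 were lower, with a median of -0.82, and none of the 16 transcripts of the circadian clock list was separated.

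The fermentation list had a summed level of 1142 and 1071 RPKM in R9308 and 628 and 554 RPKM in the hybrid. Its median log2 fold change was -0.57, and lay between -0.95 and -0.21 when 1 library was left out. Os11t0210600-01, similar to alcohol dehydrogenase, had 568 and 323 RPKM in R9308 and 93.9 and 5.89 RPKM in the hybrid, while Os11t0210300-01, alcohol dehydrogenase 1, had 75.7 and 103 RPKM against 127 and 39.8 RPKM, which overlapped. In 4 of 12 fermentation transcripts (33.3%) the hybrid was lower and in 1 (8.33%) higher, against 7.32% and 2.92% of all tested, and none of the 5 was separated the same way at heading. The higher transcript, Os11t0210500-02, and Os11t0210500-01 among the lower are the 2 isoforms of 1 alcohol dehydrogenase locus. The sum over that locus was not separated, at 419 and 444 CPM in R9308 and 283 and 189 CPM in the hybrid. Of 36 expansins, which loosen cell walls, 4 (11.1%) were lower in the hybrid, near the 7.32% of all tested. Os02t0626100-03, an isoform of phenylalanine ammonia-lyase at the entry to phenolics, had 600.0 and 518 RPKM in R9308 and 3271 and 1219.7 RPKM in the hybrid. In Xieqingzao B it had 731 and 1733 RPKM. The locus as a whole overlapped, with 4359 and 4674 CPM in R9308 and 7969 and 2332 CPM in the hybrid. Among 76 phenylpropanoid transcripts 2 (2.63%) were higher and 12 (15.8%) lower.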

How the data were processed

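Poly(A) RNA of rice roots was sequenced as paired reads on an Illumina HiSeq 2000. Per the labels, the authors removed reads rich in low-quality bases, and used RSEM 1.1.11 to count the remaining reads on annotated transcripts of the IRGSP build 5.0 genome of cultivar Nipponbare; strand was not stated, so overlapping and antisense genes cannot be told apart. The deposited RPKM values are those counts divided by transcript length and library total, which was checked. The deposited log2 fold changes, p-values and FDR values are the authors' own edgeR comparisons and were not used.

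Counts were analysed as deposited with edgeR 4.0.16 (R 4.3.3): filterByExpr, TMM factors and the quasi-likelihood F-test on the 6 tillering libraries, with Benjamini-Hochberg adjustment over 28434 transcripts. The common biological coefficient of variation was 0.554. DESeq2 1.42.0 was the main alternative. Classes were set on log2(CPM + 0.5). Total counts ranged from 8209696 to 15830233 in the 4 libraries compared.

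Transcripts named are the 3 called, those with the widest gaps at a mean of at least 5 RPKM (8 per direction, 4 per side for R9308 replicate 1 and hybrid replicate 2, 1 per side for the other 2 libraries), the primer loci, and from each of 26 lists the most abundant member and the widest separated member per direction. Members of runs, further list members, untested transcripts and other isoforms were named after their values were seen. The members and lists were chosen with earlier results of these data known. Fold bounds set a library without counts at 3 counts. Heading libraries of the same genotypes were used for recurrence. Those of all 3 genotypes entered the fit over both stages and the alternative fit with all 12 libraries. Alternative tests, filters, scalings, gaps and left-out libraries were tried.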

Additional observations from a re-analysis of the deposited data

Results flagged for a closer look

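Among the transcripts named by rule and the run members, 10 were separated by the 2-fold gap at both stages, in opposite directions. The peroxidase Os06t0521500-02, named above from its list, also turned but is not among the 10. Transcripts that turned by less at 1 stage are not counted. The value given is the log2 hybrid-to-R9308 difference at tillering minus that at heading, from 1 edgeR quasi-likelihood fit over both stages. No such difference passed after Benjamini-Hochberg adjustment, and the lowest adjusted p of the 10 was 0.125.

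A group of neighbours on chromosome 12 is related to phosphatases. Os12t0637400-01, similar to purple acid phosphatase, had 2.27 and 3.26 RPKM in R9308 and 0.146 and 0.477 RPKM in the hybrid at tillering, but 0.801 and 0.368 RPKM against 47.6 and 57.2 RPKM at heading, a difference of -9.54 (edgeR adjusted p = 0.135). Os12t0637200-01, with a metallophosphoesterase domain, had 14.4 and 12.7 RPKM against 4.78 and 5.75 RPKM at tillering, and 4.88 and 2.05 RPKM against 153 and 198 RPKM at heading, a difference of -7.07 (edgeR adjusted p = 0.125).

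Cell wall and defence members did the same. Os10t0555700-01, a beta-expansin, had 47.5 and 49.6 RPKM against 6.08 and 13.1 RPKM at tillering, and 4.28 and 2.95 RPKM against 44.2 and 49.6 RPKM at heading, a difference of -6.1 (edgeR adjusted p = 0.135). This is 1 of 2 transcripts of its locus, and the locus sum was not separated at tillering. It was 116 and 177 CPM in R9308 and 45.1 and 97.3 CPM in the hybrid. For Os05t0247100-02, the chitinase described above, the difference was -5.2 (edgeR adjusted p = 0.142). Os05t0134400-01, a peroxidase, went the other way at 9.9 (edgeR adjusted p = 0.244), with 1.06 and 0 RPKM in R9308 and 45.5 and 141 RPKM in the hybrid at tillering. The locus as a whole was not separated at tillering, with 233 and 355 CPM in R9308 and 153 and 208 CPM in the hybrid.

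The difference was 10.7 for the kinase Os04t0432000-01, -4.5 for the kinase Os02t0228300-01, -4.27 for Os03t0363100-00, -5.92 for Os10t0534700-01 and -15.1 for Os09t0346500-02, similar to a chlorophyll a-b binding protein. The last had 441 RPKM in R9308 replicate 1 and 4.85 RPKM in replicate 2, and the sum over the 5 transcripts of its locus was not separated at tillering. Nor was the sum over the 2 transcripts of Os04t0432000, at 58.0 and 97.5 CPM in R9308 and 113 and 115 CPM in the hybrid. Where a group had libraries without counts, the size of these differences depends on the prior count of the fit.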

How the results depend on the processing

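The count of 3 calls by edgeR's quasi-likelihood test depended on how the spread was estimated. DESeq2 called 2491 transcripts, the exact test 1866 with a common dispersion and 1211 with tagwise dispersions, and the quasi-likelihood test 1047 with all 12 libraries in the fit, 6 without a filter, 10 on locus sums and 0 with only the 4 libraries (3766 at an unadjusted p under 0.05). Leaving out 1 library in turn gave 0 calls each time (2162 to 8165 at that p). The 3 transcripts kept their direction throughout, with adjusted p between 4.53e-83 and 0.439. The replicate numbers did not pair the libraries (correlation of deviations 0.000298 between R9308 and the hybrid, 0.0406 between R9308 and Xieqingzao B and -0.378 between the hybrid and Xieqingzao B), and the fit with a replicate block made 0 calls (3705 at that p). Chosen after seeing the data, crossed numbers in the block made 0 calls (4592 at that p), leaving out R9308 replicate 1 and hybrid replicate 2 together made 0 (3318 at that p), and DESeq2 called 647 without R9308 replicate 1, 1473 without R9308 replicate 2, 5493 without hybrid replicate 1 and 2192 without hybrid replicate 2.

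Transcripts separated with the hybrid higher numbered 2020 at a 1.5-fold gap, 200 at a 4-fold gap and 492 as locus sums, between 1537 and 4038 with 1 library left out, and 3351 without R9308 replicate 1 and hybrid replicate 2. Those with the hybrid lower numbered 3596, 573, between 2713 and 5189, and 5136 in turn. For R9308 replicate 1 alone there were 1948 without a filter, for R9308 replicate 2 alone 430 at 1.5-fold, 126 at 4-fold and 127 as locus sums, and at 4-fold 447 for hybrid replicate 1 and 943 for hybrid replicate 2. Recurrence at heading was 18.63% and 46.75% for the higher transcripts when the gap at both stages was 1.5-fold and 4-fold, and 16.94% and 4.436% for the lower ones. Over all transcripts tested at both stages the shares at these gaps were 7.798% and 1.267% for higher, and 5.902% and 0.3603% for lower. Without these 2 libraries, list medians were 0.29 for ribosome, -2.42 for diterpenoid synthesis and -0.55 for WRKY factors.

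Having 2 roots per genotype limits all comparisons, and transcripts with near-identical copies or several isoforms are uncertain.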

Other observations

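Transport and wall transcripts outside the groups above also separated the genotypes. Os03t0107300-01, the silicon efflux transporter Lsi2, had 72.8 and 56.0 RPKM in R9308 and 24.9 and 25.7 RPKM in the hybrid, and was again lower in the hybrid at heading. Os10t0444700-01, similar to phosphate transporter 6, had 288 and 320.1 RPKM in R9308 and 97.0 and 60.2 RPKM in the hybrid at tillering, but 194 and 141 RPKM against 288 and 327 RPKM at heading. Os07t0252400-02, an isoform similar to a cellulose synthase, had 67.8 and 117 RPKM in R9308 and 299 and 340.15 RPKM in the hybrid. The sum over that locus overlapped, with 385 and 881 CPM in R9308 and 1474 and 707 CPM in the hybrid.

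On chromosome 7, 10 adjacent loci between Os07t0663700 and Os07t0664900 were lower in the hybrid, and none of their transcripts was again lower at heading. Os07t0663800-01, a short-chain dehydrogenase, had 170.3 and 225 RPKM in R9308 and 27.4 and 43.1 RPKM in the hybrid at tillering, against 52.6 and 33.6 RPKM in R9308 and 94.4 and 125 RPKM in the hybrid at heading. On chromosome 12, 3 adjacent loci from Os12t0431100 to Os12t0431700 were lower at both stages. Os12t0431100-01 had 264 and 179 RPKM in R9308 and 5.26 and 2.505 RPKM in the hybrid at tillering, and 16.5 and 20.7 RPKM against 7.36 and 5.79 RPKM at heading.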
